A study of Mus musculus with 31 samples.

Results

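Ion channels, neurotransmitter receptors and transporters were represented by 59 alternative splicing events in 49 genes, out of 1922 events in 1559 genes measured in any of the mice. They were chosen by gene symbol alone: the genes of voltage-gated calcium (Cacn) and potassium (Kcn) channels, ionotropic and metabotropic glutamate receptors (Gria, Grik, Grin, Grm), GABA receptors (Gabr), Trpc and Trpm channels, chloride channels and exchangers (Clcn), inositol trisphosphate receptors (Itpr), ion and lipid pumps (Atp) and solute carriers (Slc). Sodium channels, Grid receptors, Trpv and Hcn channels, ryanodine receptors, anoctamins and ABC transporters were searched for and gave no listed event. Of the 59 events, 57 were cassette exons and the other two were alternative 3′ splice sites. Where a gene had more than 1 event, the events carry the letters a, b and c after its symbol.

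RNA from the cortex of 31 mice had been probed by RASL-seq, 1 library per mouse, in which pairs of oligonucleotides that meet at a known splice junction are ligated on the RNA, amplified and counted. The R6/2 set held 3 HD mice (R62, a line that carries a transgene with the first exon of human huntingtin and an expanded CAG repeat) and 3 WT mice. The Q150 set held 4 HET mice (150Q/7Q), 4 HOMO mice (150Q/150Q) and 5 WT mice (Q7/Q7), and the Q175 set 4 HET mice (175Q/7Q), 3 HOMO mice (175Q/175Q) and 5 WT mice (Q7/Q7). No mouse had been treated. In the knock-in lines the expansion sits in the mouse's own huntingtin gene. Title and genotype labels disagree on the name of the knock-in line, so mice were assigned by the glutamines stated per allele, and each WT mouse was placed with the line whose files list the same events. The R6/2 mice were the youngest and the Q175 mice the oldest by the study's methods, so model and age cannot be told apart. For every event the short count is that of the junction formed when the alternative exon is skipped, the long count that of a junction that keeps it, and exclusion is the short count as a percentage of both. Of the members, 56 events were listed in the R6/2 set, 53 in the Q150 set and 56 in the Q175 set, with 52 in all 3.

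Channels and receptors set how a neuron responds to transmitter and how it fires, and most are built in several forms by alternative splicing of short exons. Such exons can change the binding of a ligand, the speed of channel closing, the partners of an intracellular tail or the route of the protein to the membrane. In the cortex, glutamate receptors carry fast excitation, potassium channels end the action potential, calcium channels couple firing to signalling, pumps and inositol trisphosphate receptors move calcium out of and into the cytosol, and solute carriers move transmitters, ions, metals and metabolites across membranes.

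The letters below are the short junctions of the events on which the results turn, read from GRCm38 on the transcript's strand, 5′ to 3′. The last 15 bases of the upstream exon are in lower case and the first 15 bases of the exon it is joined to are in capitals. The left-out exon was identified by its gene and by the distance between its flanking exons, because the positions in the files did not lie in the named genes on GRCm38 for most events (processing is described after the results).
Grin1_b: gagcgtgagtccaagGCAGAGAAGGTGCTG
Grin1_a: aggaagaacctgcagAGCACCGGGGGTGGA
Itpr1: tacttggctgcagagGTGGACCCTGATCAG
Kcnt1: cgacgtgggccagagGGTCCAGGTGGAGTT
Atp2b1: agaatccaaacacagATCCGAGTGGTGAAT
Atp2b3: cggatccagacacagATCCGGGTGGTGAAA
Atp2b4: cggattcagactcagATCAGAGTCGTCAAA
Gria2: ggaggtgattccaagGAAAAGACCAGTGCC
Gria3_b: ggcggtgactccaagGACAAGACCAGTGCT
Gria3_a: aggctcagcattaagAACGCCTGTAAACCT
The exon left out of Grin1_b (63 bases, coding, chr2:25311343-25311405, minus strand) encodes the N1 cassette of the GluN1 subunit's extracellular domain, and that of Grin1_a (111 bases, coding, chr2:25294438-25294548, minus strand) encodes the C1 cassette of its intracellular tail. The Itpr1 exon (45 bases, coding, chr6:108365299-108365343, plus strand) adds a segment near the ligand-binding region of the type 1 inositol trisphosphate receptor. The Kcnt1 exon has 42 bases (coding, chr2:25882196-25882237, plus strand). Atp2b1, Atp2b3 and Atp2b4 are 3 plasma membrane calcium pumps, and their short junctions join the exons on either side of the alternative segment of the carboxy-terminal, calmodulin-binding tail. Of the 30 bases shown, Atp2b1 and Atp2b3 share 25, Atp2b3 and Atp2b4 share 24, and Atp2b1 and Atp2b4 share 21. Gria2 and Gria3 are AMPA receptor subunits with 2 mutually exclusive exons of 115 bases, flop and flip. The lower-case letters of Gria2 and Gria3_b are the end of flop, so those short junctions skip flip, whereas the capitals of Gria3_a are the start of flip and its short junction skips flop.

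Among all 57 cassette members, the left-out exon had a median length of 75 bases (range 21 to 366), against 90 over the 1514 cassette events of all genes whose exon was found. The exon length was a multiple of 3 in 61.4% of the members and in 64.8% of all events. Introns around the members were longer, with a median of 4511 bases upstream and 3195 downstream, against 2416 and 2362.5. The letters TGTGTG, searched on the transcript's strand in the 200 intron bases next to the exon, were found on at least 1 side of 38.6% of members and 30.2% of all events. Itpr1 held them on both sides, while Grin1_a, Grin1_b and Kcnt1 held them on neither. The 2 shortest exons with a change in exclusion can be printed whole, in capitals: ACAATGGTCGAAATGTCAAAG in Kcnh7 (chr2:62845754-62845774, minus strand), a potassium channel of the ether-a-go-go related family, and AACCCGCTATTACGAGACTTACATTAG in Cacna1d (chr14:30050234-30050260, minus strand), the pore subunit of an L-type calcium channel.

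The libraries held 2171709 to 5256516 short and long counts per mouse, and the members took 2.585% to 4.0% of them. No listed junction fell under 4 counts in any mouse. No pair of replicates was identical or agreed within sampling noise. Of the cell type markers searched, neurons were represented by Syt1, oligodendrocytes by Mag and Mbp in every set, endothelial cells by Pecam1, astrocytes only by Slc4a4, which is itself a member, and microglia by no listed gene. In bulk cortex, fewer cells of a type and less RNA per cell cannot be told apart.

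The first comparison asked how exclusion of these exons differed between mutant and WT cortex. In R6/2 HD mice, 17 of 56 members passed the test (limma, adjusted p below 0.05 over all events), which is 30.4% of the members beside 28.4% of all 1743 events. Exclusion rose in 14 members (all events 21.1%) and fell in 3 (all events 7.34%). HD and WT mice did not overlap in 26 members, where 41.5% of all events did not overlap. In Q150 HOMO mice 11 of 53 members passed (all events 23.9%), of which 9 rose (19.8%) and 2 fell (4.09%), and 10 did not overlap (18.2%). In Q175 HOMO mice 6 of 56 passed (all events 7.07%), with all 6 higher (5.6%) and 0 lower (1.47%), and 13 did not overlap (13.8%). Among HET mice, 2 of 53 members passed in Q150, both higher (all events 3.42%, higher 2.97%), and 1 of 56 in Q175, which was lower (all events 0.598%, lower 0.218%). The trend in exclusion with 0, 1 or 2 mutant alleles passed for 11 members in Q150 (all events 23.5%) and for 6 in Q175 (7.34%). The shares of members called lay near those of all events in R6/2 and Q150. When each mouse was centred on its median event, 13 members rose (all events 16.2%) and 7 fell (11%) in R6/2, 5 rose (9.47%) and 5 fell (8.8%) in Q150 HOMO mice, and 4 rose (4.08%) and 0 fell (1.74%) in Q175 HOMO mice. The Q150 HOMO count was 7 without WT mouse 3 (all events 19.1%) or HOMO mouse 2 (18%). With the series of the mouse numbers as a term, which separates all Q175 HET from all Q175 HOMO mice, Grin1_b alone of the 6 Q175 HOMO members kept its call. In all, 23 of 59 members passed in at least 1 of the R6/2 HD, Q150 HOMO and Q175 HOMO comparisons (39% beside 36.2% of all events). Grin1_b and Itpr1, 2 of the 52 members listed in every set, passed in all 3 (3.85% beside 4.09%). The HET and HOMO comparisons of a line share their WT mice.

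Averaged over the 52 members listed in all sets, exclusion per mouse was 41.21% in R6/2 WT mice (mean, range 40.18% to 42.56%, n = 3) and 44.86% in HD mice. It was 40.92%, 42.3% and 43.26% in WT, HET and HOMO mice of the Q150 set and 41.14%, 41.99% and 42.83% in those of the Q175 set. Over all 1662 events listed in every set the corresponding means were 45.6% and 47.42%, then 45.15%, 46.1% and 46.99%, then 45.55%, 45.79% and 46.18%. The median log2 change of short over long among the members was 0.23 in R6/2 HD mice, 0.20 in Q150 HOMO mice and 0.12 in Q175 HOMO mice, beside 0.18, 0.19 and 0.07 over all events tested.

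**Figure D1:**
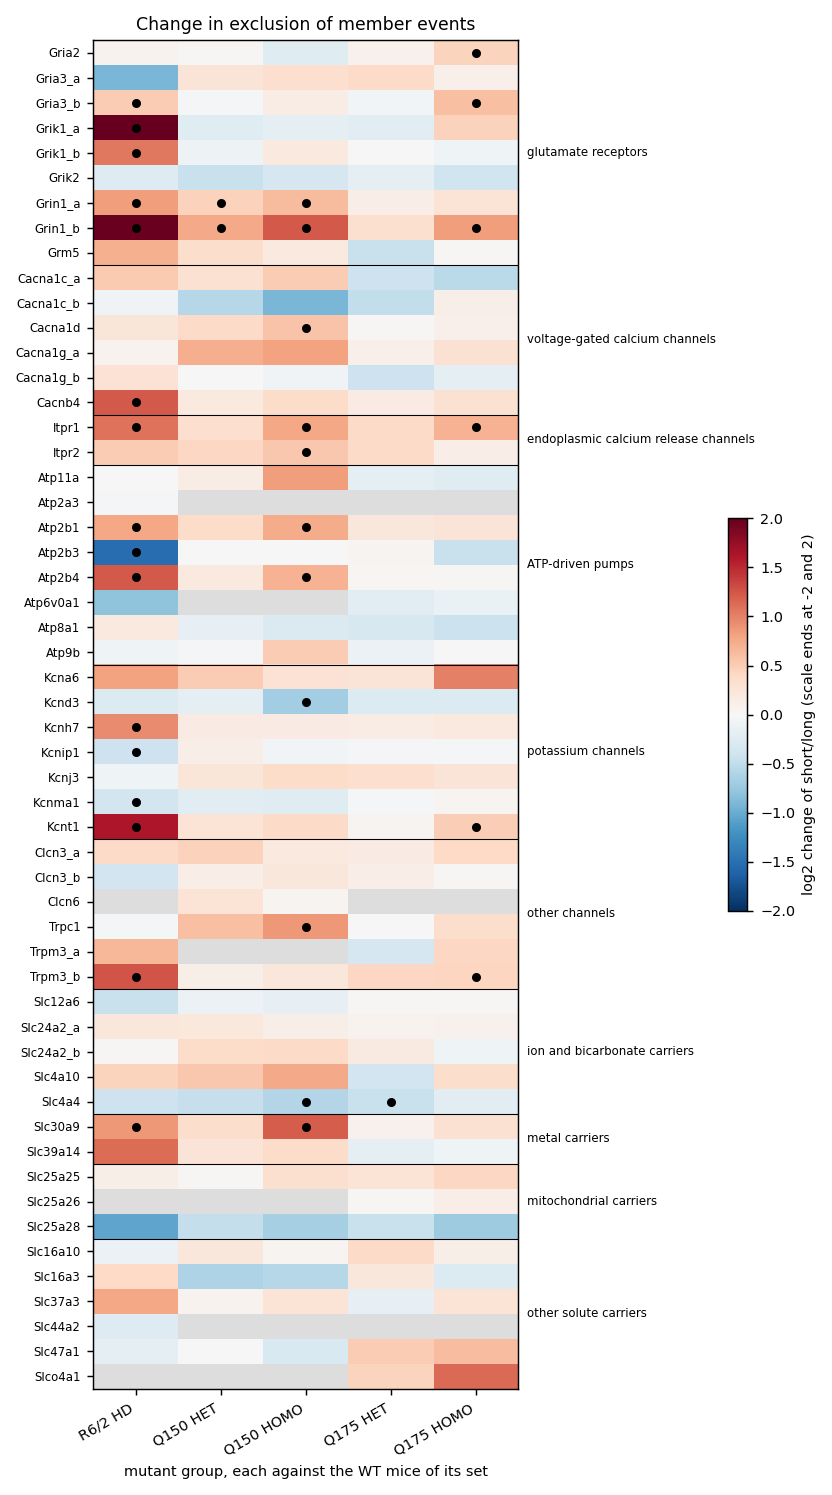
Change in exclusion of member events (vertical axis, grouped by family) in each mutant group against the WT mice of its set (horizontal axis), as the log2 change of short over long counts. Black dots mark events that passed the test and grey cells events not listed in the set; Grin1_b and Itpr1 carry a dot in R6/2 HD, Q150 HOMO and Q175 HOMO mice.

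In R6/2, 5 of 9 glutamate receptor events rose (all events 21.1%) and 0 fell (7.34%). In Q150 HOMO mice 2 of 9 rose (all events 19.8%) and in Q175 HOMO mice 3 of 9 rose (5.6%). Grin1 encodes GluN1, the subunit that every NMDA receptor requires. The N1 exon (Grin1_b) was left out of 31.94%, 33.48% and 27.29% of counts in the 3 R6/2 WT mice and of 70.75%, 59.17% and 60.19% in the 3 HD mice. All HD mice lay above all WT mice, with means of 63.37% ± 6.41 and 30.9% ± 3.223 (SD) and a log2 change of 1.97 ± 0.17 (SE, adjusted p = 1.07e-05). Exclusion of the same exon ran from 28.56% to 49.35% in the 5 Q150 WT mice, from 42.97% to 54.45% in the 4 HET mice and from 53.92% to 63.49% in the 4 HOMO mice. HET mice overlapped the WT mice and HOMO mice did not (log2 change 0.76 ± 0.18, adjusted p = 0.0212, and 1.23 ± 0.18, adjusted p = 4.36e-05). In the Q175 set WT mice ranged from 24.89% to 32.53%, HET mice from 32.31% to 35.54% and HOMO mice from 39.66% to 45.32%. The Q175 HOMO change was 0.84 ± 0.10 (adjusted p = 1.08e-07) and the HET change 0.32 ± 0.09 (adjusted p = 0.0923). The change was larger in R6/2 than in Q175 HOMO mice by 1.13 ± 0.27 (adjusted p = 0.00452), and by 0.74 ± 0.26 than in Q150 HOMO mice, a difference that did not pass (adjusted p = 0.0719). The long count moved more than the short one. As counts per 1000000 counts of the mouse (CPM), it was 2615 ± 386.1 in R6/2 WT and 889.7 ± 193.9 in HD mice, while the short count was 1158 ± 32.19 and 1525 ± 77.02 (SD, n = 3 each).

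The C1 exon of Grin1 (Grin1_a) was left out of 30.78%, 36.67% and 34.79% of counts in R6/2 WT mice and of 47.44%, 47.83% and 48.23% in HD mice. The HD mice were close to one another and above all WT mice (log2 change 0.83 ± 0.13, adjusted p = 0.000459). In the Q150 set WT mice ranged from 28.55% to 34.18%, HET mice from 36.99% to 39.56% and HOMO mice from 38.94% to 42.71%, and neither mutant group overlapped WT (HET 0.46 ± 0.11, adjusted p = 0.0212, HOMO 0.63 ± 0.11, adjusted p = 0.000241). In the Q175 set the groups overlapped, from 25.67% to 35.02% in WT, 27.12% to 37.74% in HET and 30.88% to 39.55% in HOMO mice (HOMO 0.28 ± 0.14, adjusted p = 0.26). The Q150 HET calls of both Grin1 events were lost when HET mouse 1 or 2 or WT mouse 4 was left out, and that of Grin1_b also without HET mouse 3 or WT mouse 1. Both were lost on centring and without a variance trend too, with adjusted p up to 0.124 over all alternatives.

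Grik1 encodes the GluK1 kainate receptor subunit. Exclusion of its 87-base exon (Grik1_a), which lies in the carboxy-terminal coding part, was 13.11%, 42.11% and 17.65% in R6/2 WT mice and 66.67%, 65.85% and 62.16% in HD mice. The WT mice were widely spread and the HD mice were not, and they did not overlap (log2 change 2.62 ± 0.52, adjusted p = 0.0027). It rested on 30 to 85 counts per mouse, so each value carries a wide counting error. In the knock-in lines the Grik1_a changes were -0.19 ± 0.32 (Q150 HOMO) and 0.46 ± 0.41 (Q175 HOMO), neither called, and the R6/2 change was larger by 2.81 ± 0.59 and 2.17 ± 0.61 (adjusted p = 0.00145 and 0.0153). The 45-base exon of the extracellular part (Grik1_b) was left out of 17.59%, 17.21% and 20.23% of counts in R6/2 WT and 29.41%, 28.14% and 38.83% in HD mice (1.06 ± 0.27, adjusted p = 0.0113). Without HD mouse 869 this change was 0.85 and no longer passed (adjusted p = 0.0575).

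Gria3_b, whose short junction runs from flop past flip, was at 91.33%, 90.71% and 91.11% in R6/2 WT mice and at 93.67%, 93.22% and 93.56% in HD mice, with no overlap (0.50 ± 0.14, adjusted p = 0.0215). In the Q175 set WT mice ranged from 90.58% to 92.95% and HOMO mice from 94.24% to 94.57% (0.60 ± 0.14, adjusted p = 0.00428). That call was lost with the series of mouse numbers as a term (0.37, adjusted p = 0.221) and without a variance trend (adjusted p = 0.0544). The R6/2 call of Gria3_b was lost without WT mouse 4 or 6 or HD mouse 860 or 869, and on centring each mouse on its median event (0.35, adjusted p = 0.118). The short junction of Gria3_a enters flip, whereas that of Gria3_b skips it. A fall in the first and a rise in the second are therefore not at odds. Gria3_a fell in R6/2, from 90.77%, 87.76% and 91.03% to 83.04%, 82.2% and 81.94%, without overlap but not past the threshold (-0.91 ± 0.33, adjusted p = 0.0559). It passed on leaving out WT mouse 4 (-1.07, adjusted p = 0.047), on centring (adjusted p = 0.0334), in the quasi-binomial model (adjusted p = 0.0435) and without a variance trend (adjusted p = 0.0155). Its short count was 40.27 ± 0.6782 CPM in WT and 26.26 ± 1.506 in HD mice. Which of the 2 junctions of a kept exon was probed was not determined here, since the list of probes was not used, so these percentages are not shares of flip and flop forms. Gria2, the subunit that makes AMPA receptors impermeable to calcium, ranged from 90.16% to 93.61% in Q175 WT and 93.17% to 95.25% in Q175 HOMO mice (0.44 ± 0.13, adjusted p = 0.0271), an overlap. The call was lost without WT mouse 6 or 9 or HOMO mouse 1 or 2 (adjusted p up to 0.301), on centring, without a variance trend, with all 10 knock-in WT mice and with the series term (adjusted p from 0.0587 to 0.268). Its changes in R6/2 HD and Q150 HOMO mice were 0.07 ± 0.12 and -0.24 ± 0.13, of which the second passed on centring (-0.44, adjusted p = 0.0347), and the Q150 and Q175 changes differed by -0.68 ± 0.19 (adjusted p = 0.0443). Grik2, at 87.98% to 95.51% in all knock-in mice, had changes of -0.26 ± 0.17, -0.33 ± 0.18 and -0.40 ± 0.18 in R6/2 HD, Q150 HOMO and Q175 HOMO mice, none called. The Q150 HOMO change of Grik2 passed with the series of mouse numbers as a term (-0.38, adjusted p = 0.0312) and with all 10 knock-in WT mice as controls (-0.64, adjusted p = 0.0103), as did the HET change with the latter (-0.76, adjusted p = 0.0115). Grm5, a metabotropic receptor, passed in no comparison.

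**Figure D2:**
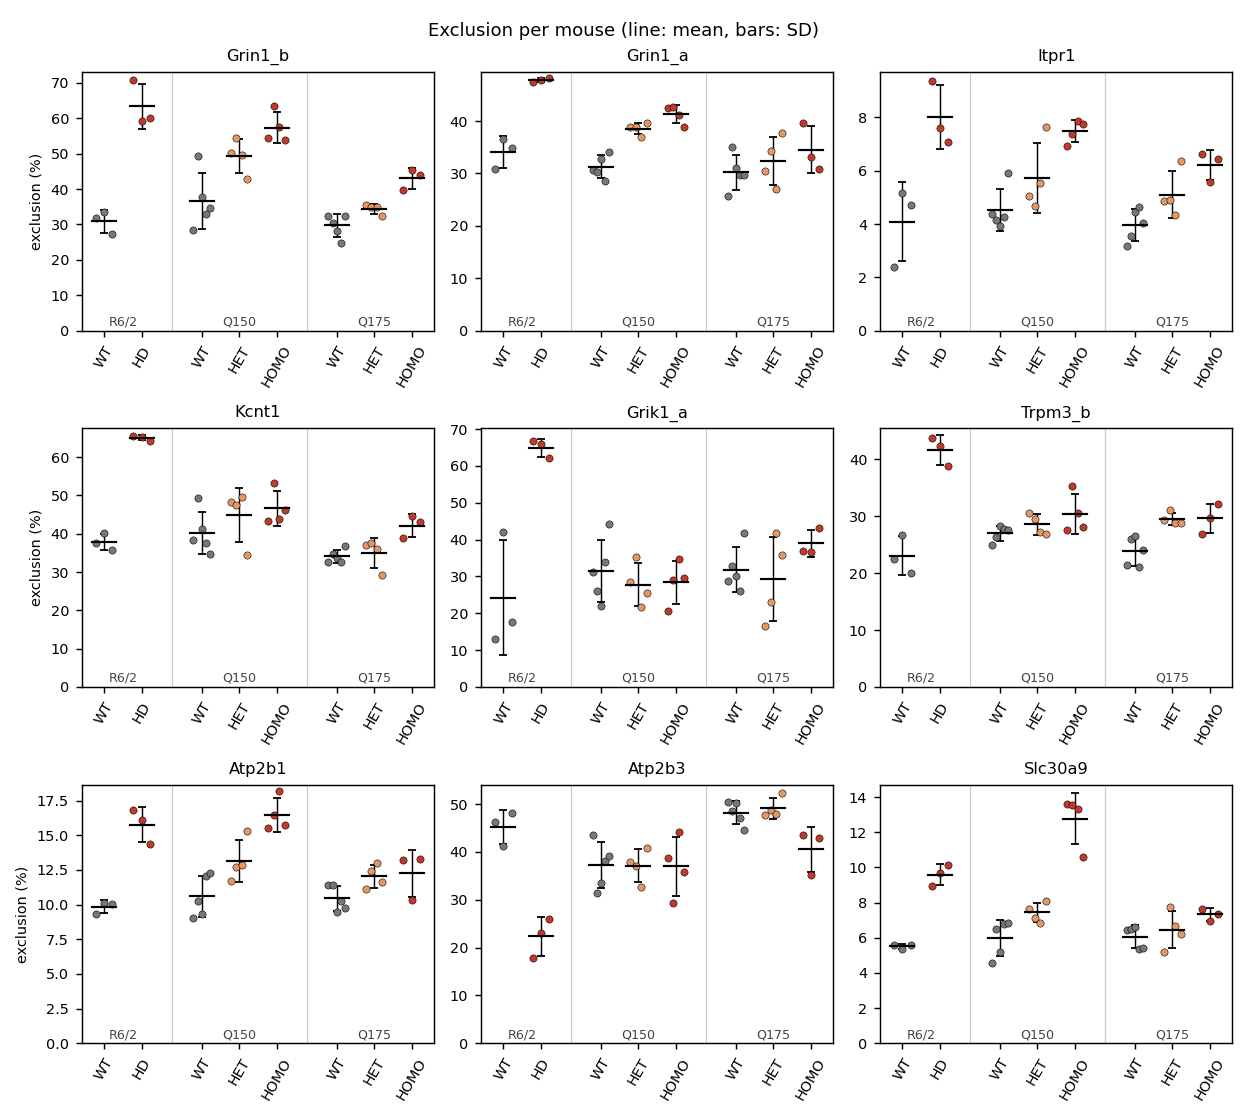
Exclusion in percent (vertical axis) of 9 member events in every mouse, by set and genotype (horizontal axis), with 1 point per mouse, a line at the mean and bars of 1 SD. In Grin1_b the R6/2 HD, Q150 HOMO and Q175 HOMO mice lie above all WT mice of their sets, while Atp2b3 is lower in R6/2 HD mice, at 17.92% to 26.03% against 41.15% to 48.21%.

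Calcium release from the endoplasmic reticulum was represented by 2 receptors. Itpr1 exclusion was low in all mice, at 2.404%, 5.158% and 4.708% in R6/2 WT and 9.351%, 7.588% and 7.079% in HD mice, a change of 1.09 ± 0.26 (adjusted p = 0.00887). The Q150 WT mice ranged from 3.938% to 5.926% and the HOMO mice from 6.928% to 7.857% (0.78 ± 0.16, adjusted p = 0.00145), and the Q175 WT mice from 3.192% to 4.622% and the HOMO mice from 5.583% to 6.637% (0.69 ± 0.16, adjusted p = 0.00393). No R6/2 HD or HOMO mouse overlapped its WT group in any of the 3 sets. The Itpr1 call was lost without a variance trend in R6/2 (adjusted p = 0.0529), and in Q175 HOMO mice it was lost there and with the series term (0.55, adjusted p = 0.102). Itpr2 rose in Q150 HOMO mice, from 25.94% to 32% in WT to 32.07% to 40.83% in HOMO (0.54 ± 0.17, adjusted p = 0.0242). It was 0.51 ± 0.18 in R6/2 HD (adjusted p = 0.058) and 0.14 ± 0.19 in Q175 HOMO mice. The Q150 call of Itpr2 was lost without WT mouse 1, 3 or 4 or HOMO mouse 1 or 2 and on centring (adjusted p up to 0.156).

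The calcium pumps of the plasma membrane did not move together. In R6/2, Atp2b1 exclusion rose from 9.326%, 10.15% and 10.06% in WT to 16.82%, 16.13% and 14.34% in HD mice (0.77 ± 0.13, adjusted p = 0.000995). Atp2b4 rose from 5.938%, 9.302% and 8.46% to 18.56%, 14.8% and 16.57% (1.23 ± 0.23, adjusted p = 0.00181). Atp2b3 fell, from 46.21%, 41.15% and 48.21% to 17.92%, 23.08% and 26.03% (-1.53 ± 0.23, adjusted p = 0.000415), and none of the 3 overlapped. In Q150 HOMO mice Atp2b1 ranged from 15.52% to 18.2% against 9.04% to 12.28% in WT (0.74 ± 0.13, adjusted p = 0.000352) and Atp2b4 from 8.407% to 11.47% against 5.519% to 9.888% (0.70 ± 0.19, adjusted p = 0.0118), an overlap, and the Atp2b4 call was lost on centring. Atp2b3 was level there (-0.01 ± 0.19), and the R6/2 change differed from that of Q150 HOMO mice by -1.51 ± 0.28 (adjusted p = 0.00025) and from that of Q175 HOMO mice by -1.08 ± 0.29 (adjusted p = 0.00844). In Q175 HOMO mice none of the pumps passed, with 0.26 ± 0.12 for Atp2b1, -0.45 ± 0.16 for Atp2b3 and 0.03 ± 0.20 for Atp2b4. The R6/2 change of Atp2b4 exceeded the last by 1.2 ± 0.31 (adjusted p = 0.00667). The annotation holds 2 exon forms between the same flanking exons in Atp2b1 and Atp2b4, so the length of the kept exon is uncertain there and the short junction is not.

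Of the 11 potassium channel events, 3 rose (all events 21.1%) and 2 fell (7.34%) in R6/2. Kcnt1, a sodium-activated channel, was at 37.65%, 40.12% and 35.82% in WT and at 65.61%, 65.22% and 64.31% in HD mice (1.61 ± 0.13, adjusted p = 5.47e-06). Its long count fell from 226.7 ± 30.34 to 86.33 ± 3.032 CPM while its short count was 138.1 ± 18.15 and 160.7 ± 7.452. The Q175 HOMO mice, at 38.81%, 44.63% and 42.99%, lay above WT mice at 32.68% to 36.78% (0.49 ± 0.12, adjusted p = 0.00791). The call was lost without HOMO mouse 2 (adjusted p = 0.0728), without a variance trend (adjusted p = 0.104) and with all 10 knock-in WT mice as controls (0.30, adjusted p = 0.291). In Q150 HOMO mice the change was 0.38 ± 0.18 (adjusted p = 0.141), and the R6/2 change exceeded the Q150 one by 1.23 ± 0.24 (adjusted p = 0.000824) and the Q175 one by 1.12 ± 0.25 (adjusted p = 0.00217). The 21-base exon of Kcnh7 was left out of 1.917%, 2.168% and 1.925% of counts in R6/2 WT and 2.984%, 4.36% and 4.221% in HD mice (0.95 ± 0.19, adjusted p = 0.00243). That change exceeded the Q150 HOMO one by 0.78 ± 0.21 and the Q175 HOMO one by 0.76 ± 0.22 (adjusted p = 0.0131 and 0.0178). The lower events were Kcnip1, a cytosolic partner of A-type channels (-0.41), and Kcnma1, the large-conductance calcium-activated channel (-0.36). Either call was lost without a variance trend and without WT mouse 3 or 4 or HD mouse 869, that of Kcnip1 also without HD mouse 860 and that of Kcnma1 without WT mouse 6 or HD mouse 868. In Q150 HOMO mice the 57-base exon of Kcnd3, the pore subunit of an A-type channel, fell from 90.86% to 94.22% in WT to 87.17% to 90.21% in HOMO mice (-0.70 ± 0.25, adjusted p = 0.0448). The Kcnd3 call was lost without WT mouse 2, 3 or 4 or HOMO mouse 1, 2 or 3 (adjusted p up to 0.111), with the series of mouse numbers as a term (-0.69, adjusted p = 0.0511) and with only the 2 groups compared in the fit (adjusted p = 0.0586).

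Among the other channels, Trpm3_b, a 36-base exon of a heat-sensitive cation channel, was left out of 22.53%, 26.69% and 19.98% of counts in R6/2 WT and 43.79%, 42.35% and 38.78% in HD mice (1.26 ± 0.17, adjusted p = 0.000201). The Q175 HOMO mice, at 26.96%, 29.71% and 32.17%, lay just above WT mice at 21.06% to 26.52% (0.43 ± 0.13, adjusted p = 0.0417). That call was lost without any 1 of WT mice 6, 9 and 10 and HOMO mice 2 and 3 (adjusted p up to 0.228), and under 6 other settings, among them centring (adjusted p = 0.0767) and the series term (adjusted p = 0.0555). The R6/2 change exceeded that of Q150 HOMO mice by 1.02 ± 0.20 (adjusted p = 0.000749) and that of Q175 HOMO mice by 0.83 ± 0.21 (adjusted p = 0.006). Cacnb4, an auxiliary calcium channel subunit, was at 13.16%, 15.38% and 10.34% in R6/2 WT and 22.14%, 23.83% and 33.22% in HD mice (1.23 ± 0.31, adjusted p = 0.0102), and at 0.99 without HD mouse 869 the call was lost (adjusted p = 0.0634). Cacna1d exclusion stayed under 3% in all mice and rose in Q150 HOMO mice from 1.229% to 1.79% in WT to 1.882% to 2.453% (0.57 ± 0.17, adjusted p = 0.0191), a call lost on centring (adjusted p = 0.129) and without HOMO mouse 2 (adjusted p = 0.0618). Trpc1, a cation channel of the canonical Trp family, rose in Q150 HOMO mice from 39.51% to 59.46% in WT to 62.2% to 67.89% (0.87 ± 0.31, adjusted p = 0.0433) on 51 to 119 counts per mouse. The Trpc1 call was lost without WT mouse 1, 3 or 4 or any 1 of the 4 HOMO mice (adjusted p up to 0.119), on centring (0.67, adjusted p = 0.129) and without a variance trend (adjusted p = 0.0559).

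Among the transporters, exclusion of Slc30a9, a zinc transporter family member, was 5.577%, 5.341% and 5.592% in R6/2 WT and 8.961%, 9.67% and 10.14% in HD mice (0.86 ± 0.10, adjusted p = 9.45e-05). Q150 HOMO mice ranged from 10.59% to 13.61% against 4.588% to 6.826% in WT (1.21 ± 0.13, adjusted p = 8.05e-07). Q175 HOMO mice, at 6.955% to 7.659%, lay just above WT mice at 5.33% to 6.608% and did not pass (0.30 ± 0.11, adjusted p = 0.12), and the Q150 change exceeded the Q175 one by 0.91 ± 0.18 (adjusted p = 0.00373). The bicarbonate carrier Slc4a4, enriched in astrocytes, fell in Q150 HOMO mice from 90.29% to 92.36% in WT to 81.79% to 90.3% (-0.58 ± 0.19, adjusted p = 0.0272) and in Q175 HET mice from 90.49% to 93.63% to 88.74% to 90.8% (-0.44 ± 0.11, adjusted p = 0.0485), with overlap in both. Exclusion of Slc4a4 did not pass in R6/2 HD, Q150 HET or Q175 HOMO mice. In Q175 HOMO mice the lowest change of any ion or bicarbonate carrier event was -0.22. The Q150 HOMO call was lost without WT mouse 2 or 3 or HOMO mouse 1 or 2, and the Q175 HET call without WT mouse 6, 8, 9 or 10 or HET mouse 2, 3 or 4. Both were lost without a variance trend, the first also in the quasi-binomial model and the second with all 10 knock-in WT mice and with the series term. No mitochondrial carrier event and none of the other Slc events passed in any of the 5 comparisons with WT.

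**Figure D3:**
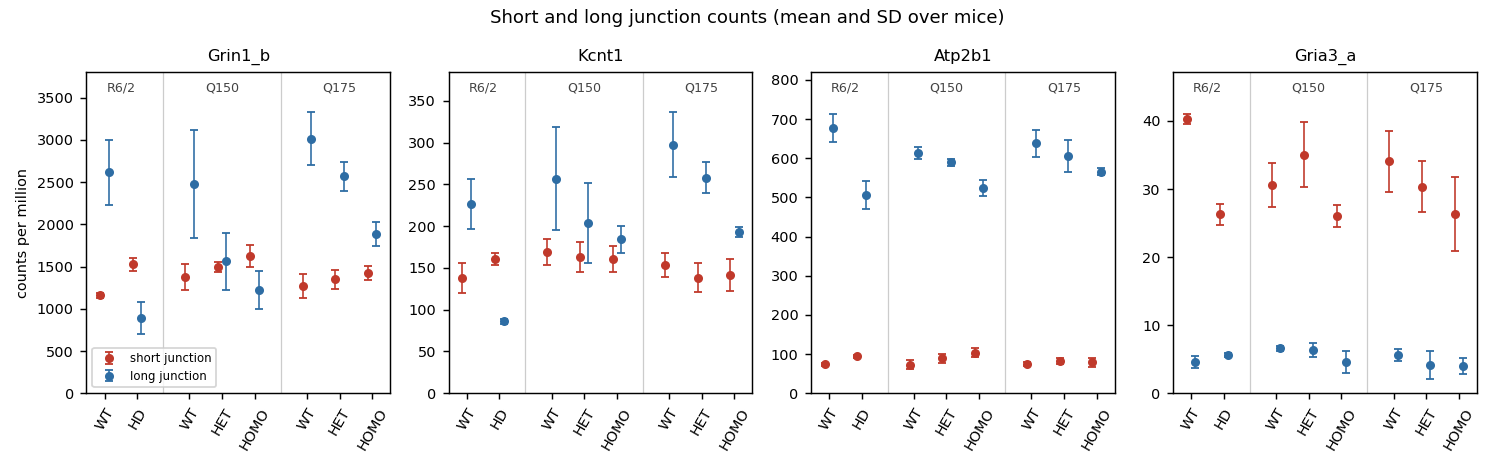
Short (red) and long (blue) junction counts in CPM (vertical axis) of Grin1_b, Kcnt1, Atp2b1 and Gria3_a by set and genotype (horizontal axis), as mean and SD over mice. In Grin1_b the long count is 2615 in R6/2 WT and 889.7 in HD mice, and the short count 1158 and 1525.

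A second readout was the junction total, the sum of an event's short and long counts in CPM. It is the denominator of exclusion, so both readouts rest on the same counts and are not independent. In R6/2 the long count of Grik1_a was 17.81 ± 2.378 CPM in WT and 3.225 ± 0.3154 in HD mice, beside short counts of 6.027 ± 4.413 and 5.981 ± 0.7745. The lower long count enters both its exclusion and its total, as it does in Grin1_b. A total is not a gene's expression level, since it covers only the probed junctions. In R6/2 HD mice 26 of 56 members passed (all events 44.4%), of which 8 rose (all events 29.6%) and 18 fell (14.8%). In Q150 HOMO mice 10 of 53 passed (14.1%), 1 higher (9.36%) and 9 lower (4.76%), and in Q175 HOMO mice 10 of 56 passed (12.9%), 2 higher (7.01%) and 8 lower (5.87%). The Q150 HOMO count was 4 without WT mouse 1 (all events 9.8%), 5 without HOMO mouse 1 (6.78%) and 3 without HOMO mouse 2 (5.27%). With the series of mouse numbers as a term it was 22, beside 28.1% of all events. The HET comparisons gave 1 of 53 in Q150 (0.84%) and 0 of 56 in Q175 (0.109%). At an unadjusted p below 0.05, limma gave 10 members in Q175 HET mice, which is 17.9% beside 13.8% of all events. On the log2 scale the members' median change in total was -0.09 in R6/2 HD mice and -0.04 in the HOMO mice of either line, beside 0.13, 0.06 and 0.04 over all events. When each mouse was centred on its median event, 4 members rose (all events 22.5%) and 19 fell (17.5%) in R6/2, 0 rose (3.75%) and 14 fell (8.18%) in Q150 HOMO mice, and 1 rose (4.4%) and 9 fell (7.23%) in HOMO mice of the Q175 set. The total of the neuronal marker Syt1 was 28100 to 33100 CPM in R6/2 WT and 22800 to 27200 in HD mice, with no overlap. It overlapped in both knock-in sets, at 29800 to 36000 in Q150 WT and 26300 to 30000 in HOMO mice and at 25200 to 33000 and 27700 to 32400 in the Q175 set. Its part in the lower totals of the members was not tested. Oligodendrocyte marker totals overlapped between groups in R6/2, at 10900 to 13300 in WT and 9000 to 13100 in HD mice. Pecam1 also overlapped there, at 45.8 to 80.6 and 33.4 to 57.6.

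The totals of Slc4a4 and Grin1_b fell in all of R6/2 HD, Q150 HOMO and Q175 HOMO mice. The share of all events whose totals fell in every one of these comparisons was not counted. The Slc4a4 total was 1839, 1763 and 1693 CPM in R6/2 WT and 1003, 850.3 and 799.3 in HD mice (log2 change -1.0 ± 0.09, adjusted p = 1.78e-06). In the Q150 set WT mice ranged from 1401 to 1704 and HOMO mice from 936.3 to 1392 (-0.50 ± 0.14, adjusted p = 0.0293), and in the Q175 set WT mice ranged from 1627 to 2016 and HOMO mice from 1300 to 1360 (-0.46 ± 0.06, adjusted p = 0.000701). R6/2 HD and HOMO mice did not overlap WT mice in any of the 3 sets. The Q150 HOMO call was lost without any 1 of WT mice 1, 2, 3 and 5 and HOMO mice 1 and 2. On the long junction alone it was lost too, as was the Q175 HOMO call (-0.24, adjusted p = 0.0801), while the R6/2 change was -0.57 (adjusted p = 0.0128). In the Q150 set the long count was 143.6 ± 12.25 CPM in WT and 144.9 ± 17.71 in HOMO mice, while the short count was 1462 ± 120.6 and 1008 ± 257.6, so the lower total lay in the short junction. It was the only astrocyte marker listed, so a change in astrocytes could not be told from a change in this gene. The Grin1_b total changed by -0.64 ± 0.08 in R6/2 HD mice (adjusted p = 2.67e-05), -0.42 ± 0.12 in Q150 HOMO mice (adjusted p = 0.029) and -0.37 ± 0.07 in Q175 HOMO mice (adjusted p = 0.00246). Mutant and WT mice overlapped in Q150 alone, where the call was lost without any 1 of WT mice 1, 3, 4 and 5 and HOMO mice 1 and 2.

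The total of Kcnh7 fell from 1883, 1614 and 1532 to 896.6, 881.2 and 961.4 in R6/2 (-0.87 ± 0.08, adjusted p = 4.4e-06). It was 1322 to 1754 in Q150 WT and 806.6 to 1145 in HOMO mice (-0.57 ± 0.16, adjusted p = 0.0283, a call lost without WT mouse 1 or 4 or HOMO mouse 1 or 2 or on the long junction alone, adjusted p up to 0.101) and overlapped in Q175. Cacna1g_a, an event of the T-type calcium channel gene, fell from 42.69, 57.1 and 49.04 to 27.63, 26.29 and 18.44 in R6/2 (-1.05 ± 0.19, adjusted p = 0.000603) and from 43.13 to 70.43 to 21.71 to 40.23 in Q150 HOMO mice (-0.83 ± 0.17, adjusted p = 0.00569), with -0.14 ± 0.15 in Q175 HOMO mice. Grik1_a, whose exclusion rose in R6/2, had totals of 21.17, 26.25 and 24.1 in WT and 8.724, 10.36 and 8.53 in HD mice (-1.36 ± 0.21, adjusted p = 0.000201). Its Q175 HOMO change (-0.47 ± 0.15, adjusted p = 0.0448) lost its call without any 1 of the 5 WT or 3 HOMO mice, on the long junction alone and with the series term (adjusted p up to 0.194). Slc24a2_b, an event of a potassium-dependent sodium/calcium exchanger, was the 1 member called in Q150 HET mice: WT mice ranged from 85.22 to 117.2 CPM, HET mice from 52.52 to 66.73 and HOMO mice from 50.95 to 64.55 (HET -0.76 ± 0.12, adjusted p = 0.00626, HOMO -0.76 ± 0.12, adjusted p = 0.00163).

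**Figure D4:**
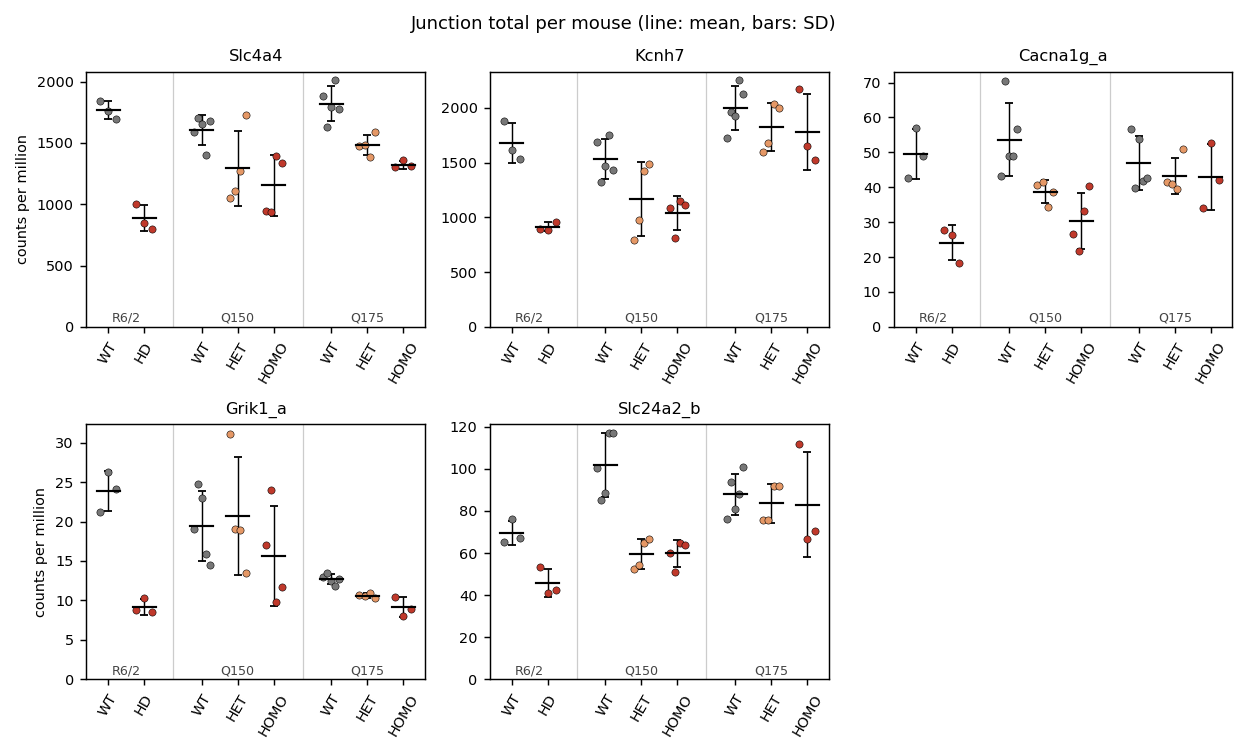
Junction total in CPM (vertical axis) of 5 member events in every mouse, by set and genotype (horizontal axis), with 1 point per mouse, a line at the mean and bars of 1 SD. Slc4a4 is lower in R6/2 HD, Q150 HOMO and Q175 HOMO mice than in every WT mouse of the set, whereas Slc24a2_b is lower in R6/2 HD mice and both Q150 mutant groups and overlaps in the Q175 set.

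The difference between models was tested on exclusion over the events listed in all sets. The R6/2 and Q150 HOMO changes differed in 5 of 52 members (all events 9.63%), the R6/2 and Q175 HOMO changes in 7 (11.6%) and the Q150 and Q175 HOMO changes in 2 (2.77%). All 5 members of the first comparison (Trpm3_b, Grik1_a, Kcnh7, Atp2b3 and Kcnt1) recur in the second, beside Grin1_b and Atp2b4, and both comparisons share the R6/2 mice.

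Other genes of the same synapses and membranes that the symbol rule does not match, such as scaffolds, active zone proteins and channel partners, were read from a list of 83 genes, of which 27 were listed in R6/2 and 28 in the knock-in sets. Exclusion rose in 14 and fell in 4 of their 46 events in R6/2 HD mice, which is 39.1% beside 28.4% of all events. It rose in 16 and fell in 1 of 48 in Q150 HOMO mice (35.4% beside 23.9%), and rose in 3 and fell in 2 of 47 in Q175 HOMO mice (10.6% beside 7.07%). In HET mice 2 of 48 rose in Q150 (4.17% beside 3.42%) and 0 of 47 passed in Q175 (all events 0.598%). The events that passed in all of R6/2 HD, Q150 HOMO and Q175 HOMO mice were 1 of Ank2, ankyrin B, and a pair of Camk2d, a calcium- and calmodulin-dependent kinase. Over all genes, 4.09% of the events listed in every set passed in all 3 comparisons. The Ank2 event rose by 1.15 ± 0.12, 0.88 ± 0.10 and 0.36 ± 0.10 on the log2 scale. One Camk2d event rose by 1.95 ± 0.24, 1.14 ± 0.19 and 1.25 ± 0.23. The other changed by -0.84 ± 0.23, -0.87 ± 0.22 and -1.26 ± 0.25, with overlap in Q150.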

How the data were processed

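RASL-seq of cortex from 31 mice was analysed from the deposited tables, in which the authors give, per event and mouse, a short and a long junction count. The values carry commas between digit groups, which were removed, and are treated as raw counts, since totals differ between mice. They are recorded as another unit, so no count model served as the main test. A quasi-binomial model of the short and long counts was run only as an alternative for exclusion. The aligner and counter are not given in the sources used here. The submitters' processing notes name mm10, yet only 14.5% of cassette events lay inside their gene on GRCm38. In the GRCm38 annotation, an exon of the named gene with flanking exons the given distance apart was found for 98.1% of 1547 cassette events. Those coordinates are printed. Only this distance was matched, not the length of the exon or of either intron. The match was unique for 84.8%.

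The members and gene lists were chosen with earlier results of these data known. Events were named that passed without overlap of the groups, by size of change (up to 10 in R6/2 HD and in Q150 HOMO, 6 in Q175 HOMO and 4 in HET mice; for totals up to 5 in R6/2 HD and 3 in HOMO mice), that passed in all 3 models, or that belonged to ionotropic glutamate receptors. Kcnip1, Kcnma1, Kcnh7 exclusion, Slc4a4 exclusion, Grm5 and the values of named events in other comparisons were added after their values were seen. So were the Ank2 and Camk2d events, from a gene list meant for counts only. Results of some members are not reported here, though counts over all members include them. Depth was 2171709 to 5256516 counts per mouse, and intervals or SEs cover only the spread between mice, each 1 library; the labels name separate mice.

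Exclusion was tested as log2((short + 0.5)/(long + 0.5)) with limma 3.58.1 in R 4.3.3, with a variance trend, a mean of at least 10 counts and Benjamini-Hochberg adjustment over all events of a set at 0.05. Junction totals were tested likewise as log2 of CPM, counts per 1000000. The fits were tested on simulated data. Among 47 pairs of replicates none was identical, and the lowest chi-square per degree of freedom was 4.263. Alternatives were another pseudocount, other count minimums, a quasi-binomial model, centring on the median event, no variance trend, only the groups compared, all 10 knock-in WT mice, the series of mouse numbers as a term, and leaving out each mouse.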

Additional observations from a re-analysis of the deposited data

Results flagged for a closer look

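The changes in exclusion of 9 members differed between models by the test of the difference itself, on the log2 scale of short over long. The shares of members that differed lay near those of all events, at 9.62% beside 9.63% between R6/2 HD and Q150 HOMO, 13.5% beside 11.6% between R6/2 HD and Q175 HOMO and 3.85% beside 2.77% between Q150 and Q175 HOMO mice. Between R6/2 HD and Q150 HOMO mice the differences were 1.02 for Trpm3_b, 2.81 for Grik1_a, 0.78 for Kcnh7, -1.51 for Atp2b3 and 1.23 for Kcnt1. Between R6/2 HD and Q175 HOMO mice they were 1.13 for Grin1_b, 0.83 for Trpm3_b, 2.17 for Grik1_a, 1.2 for Atp2b4, 0.76 for Kcnh7, -1.08 for Atp2b3 and 1.12 for Kcnt1. Between Q150 and Q175 HOMO mice they were -0.68 for Gria2 and 0.91 for Slc30a9. The models also differ in age, which cannot be told apart from the model. The lists of events differ between sets too, but the difference was tested only on events listed in every set.

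In 4 of 100 groups of 4 or 5 mice a single mouse lay far from the others by Dixon's criterion, which chance meets in about 1 group in 20. Kcnt1 exclusion was 34.59% in Q150 HET mouse 4, with the nearest mouse at 47.4%. Kcnd3 exclusion was 90% in the same mouse, with the nearest at 92.12%. This mouse is the only Q150 HET mouse of its series of mouse numbers. Itpr1 exclusion was 5.926% in Q150 WT mouse 5, with the nearest at 4.378%. Slc30a9 exclusion was 10.59% in Q150 HOMO mouse 4, with the nearest at 13.31%.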

How the results depend on the processing

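Over all members and the 5 comparisons with WT, 17 of 37 exclusion calls and 23 of 47 calls on totals were kept in every alternative run. Of the 37 calls chosen by the naming rule, 19 held in every alternative and 0 reversed. In addition, 151 of 196 alternative counts of called members were within 1.5 times the reported count. The share of all events called in the same fit follows each count in parentheses. With all 10 knock-in WT mice, exclusion counts were 8 (8.38%) in Q150 HET, 17 (30.8%) in Q150 HOMO, 0 (0.578%) in Q175 HET and 3 (4.79%) in Q175 HOMO mice, with 18 (31.8%) and 2 (5.37%) for the Q150 and Q175 trends with alleles. With the series of mouse numbers as a term they were 5 (7.62%) in Q150 HET, 0 (0.272%) in Q175 HET and 2 (4.4%) in Q175 HOMO mice, and the counts of totals were 6 (5.66%) in Q150 HET, 22 (28.1%) in Q150 HOMO and, for Q175 HOMO mice, 6 (5.38%). Without a variance trend exclusion counts were 0 (1.68%) in Q150 HET, 0 (0.0544%) in Q175 HET and 1 (2.12%) in Q175 HOMO mice, 2 (2.45%) for the Q175 trend and 1 (1.74%) for the difference between Q150 and Q175. Centring gave 0 (2.24%) in Q150 HET mice, 2 (5.17%) for the Q175 trend and 2 (0.381%) totals in Q175 HET mice. Leaving out 1 mouse at a time, exclusion counts ran from 12 to 17 in R6/2 HD, 0 to 2 in Q150 HET, 7 to 13 in Q150 HOMO, 0 to 1 in Q175 HET and 4 to 6 in Q175 HOMO mice, and from 8 to 13 and 2 to 7 for the Q150 and Q175 trends, the latter 2 without HOMO mouse 2 and 3 without HOMO mouse 3. Counts of totals ran from 21 to 25 in R6/2 HD, 1 to 3 in Q150 HET, 3 to 13 in Q150 HOMO, 0 to 2 in Q175 HET and 7 to 9 in Q175 HOMO mice. The cause of these shifts was not tested. No paired analysis was possible because no mouse number in the labels recurs between the groups compared, and the numbers given here to knock-in mice only name them. Counting error is wide for Grik1_a, with 30 to 85 counts per mouse in R6/2, and Trpc1, with 51 to 119 in Q150 WT and HOMO mice. It is also wide in R6/2 for Gria3_a, with long counts of 12 to 26 per mouse. Cacnb4 had short counts of 12 to 15 in R6/2 WT mice. The part of counting error in the lost calls was not tested.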
